A study of Arabidopsis thaliana with 6 samples.

Results

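The serine carboxypeptidase-like (SCPL) genes of Arabidopsis thaliana were followed in whole seedlings that carried PaWRKY1 behind the 35S promoter. Members were taken as the probe sets with 1 annotated gene whose current symbol begins with SCPL or scpl and a number. This gave 29 genes, each with 1 probe set, of the 22746 probe sets tested. The current gene table holds 49 such symbols, and the other 20 had no single-gene probe set under this rule and were not analysed here. They include SCPL19, also called SNG2. SNG1 (SCPL8) and BRS1 (SCPL24), family members under other symbols, had no single-gene probe set either.

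The arrays compared 35S-PaWRKY1 transgenic plants (3 arrays) with plants carrying the empty vector pCAMBIA 1302 (3 arrays). The 35S promoter, from cauliflower mosaic virus, drives strong expression in most plant tissues, so no single cell type is addressed. PaWRKY1 is named as a WRKY protein, a class of plant transcription factors. All plants were grown on full-strength MS medium, sampled as shoot and root together at 7 days after 2 days of seed vernalization. The ecotype and how many independent lines were used could not be read from the labels. In such mixed tissue, fewer cells of a type and less RNA per cell cannot be told apart.

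Serine carboxypeptidases are hydrolases that cut amino acids from the carboxyl end of proteins, using a catalytic serine, and many are found in the vacuole or outside the cell. In plants part of the family took up another task, the transfer of acyl groups from glucose esters. SNG1 and SNG2 make sinapate esters in this way: SNG1 forms sinapoylmalate, an ultraviolet screen of leaves, and SNG2 forms sinapoylcholine in seeds. BRS1 is known as a suppressor of a weak mutant of the brassinosteroid receptor BRI1 and is thought to be a secreted carboxypeptidase. For most other members a substrate is not firmly established.

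Each deposited value is a difference from the mean of the empty-vector arrays for the same probe set, on a log scale read as log2 by convention, with higher values taken to mean more transcript. The values therefore give no expression level, and neither the order of levels among members nor the presence of the tissue's defining markers could be examined. Principal component 1, with 41.7% of the variance over all probe sets, placed 35S-PaWRKY1 replicate 3 at 12.8 and empty-vector replicate 3 at 40.7, and the other 4 arrays between -22.4 and -2.73. Values without both replicate 3 arrays are therefore given beside those of the members described array by array. Few tissue markers were matched: 2 of 7 listed for shoot, 2 of 8 for root and 0 of 4 for seed. In shoot markers, RCA (Rubisco activase) differed by 0.020 and FAMA (a guard cell regulator) by 0.17. In root markers, EXPA7 (a root hair expansin) differed by -0.037 and XTH26 (a root hair cell wall enzyme) by -0.39 (SE 0.126), at limma adjusted p of 0.505 or more for all 4. XTH26 was at -0.35, -0.38 and -0.45 in 35S-PaWRKY1 plants, against -0.26, 0.086 and 0.17 in empty-vector plants. Its groups did not overlap (unadjusted p 0.0179 in limma), as for 9.17% of all probe sets in this direction. Its difference was -0.28 without both replicate 3 arrays. The part of these differences in the SCPL values was not tested. The labels call the arrays biological replicates; separate sowings or lines are not stated, so the p-values cover only the spread among these 6 arrays, which may be technical.

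The comparison asks which family members differ when PaWRKY1 is expressed. SCPL34 was the member furthest from control, at -0.72 (SE 0.134, n = 3 per group), followed by scpl46 at 0.37 (SE 0.0996). The other 27 members differed by less than 0.25 in either direction. No member passed the test over all probe sets: 0 of 29 had an adjusted p under 0.05 in limma with Benjamini-Hochberg adjustment, where 0.0308% of all probe sets were called. At an unadjusted p under 0.05, limma counted 3 of 29 members (SCPL34, scpl46 and SCPL32), or 10.3%, beside a background of 8.01%. That share lies near the background, so the count is not a result about the family.

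**Figure D1:**
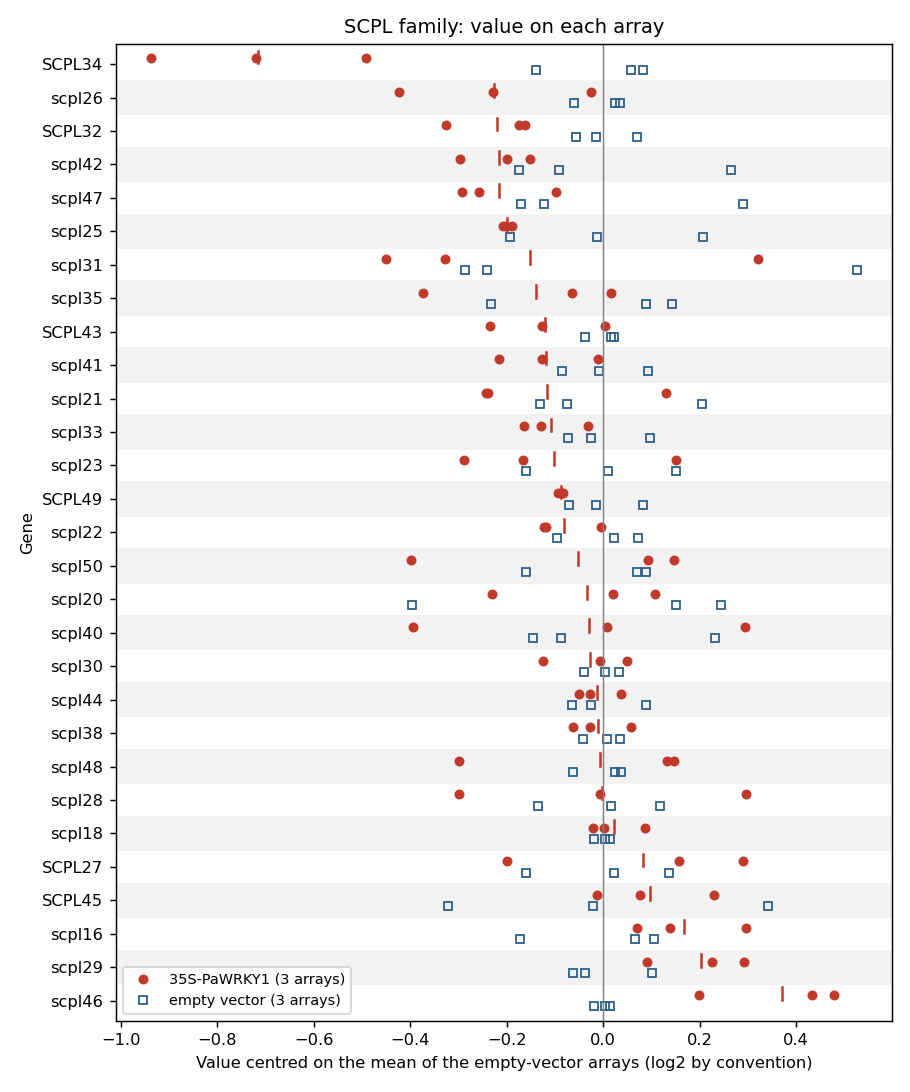
Value of each of the 29 SCPL genes on every array, with 35S-PaWRKY1 as filled circles (short line, mean of 3 arrays) above the empty vector as open squares. The horizontal axis is the value centred on the empty-vector mean, on a log scale read as log2; genes are ordered by the difference between genotypes. SCPL34, at the top, has all 3 transgenic arrays at -0.49 or below, while scpl46, at the bottom, has them at 0.20 or above.

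SCPL34 (AT5G23210, probe set 249847_at) lies on chromosome 5 and encodes a carboxypeptidase-like protein named by sequence. It was at -0.94, -0.72 and -0.49 in 35S-PaWRKY1 replicates 1 to 3, against -0.14, 0.082 and 0.058 in empty-vector replicates 1 to 3. All 3 transgenic arrays lay below all 3 controls, with a gap of 0.35 between the nearest arrays. The 95% interval of the difference ran from -1.03 to -0.40, and the transcript was 1.64-fold lower if the values are log2. The adjusted p was 0.332 in limma, so the difference did not pass over all probe sets. The difference was -0.80 without both replicate 3 arrays and lay between -0.83 and -0.61 with any 1 array left out.

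The gene scpl46 (AT2G33530, 255842_at) on chromosome 2 was the member highest above control. It was at 0.20, 0.43 and 0.48 in 35S-PaWRKY1 plants, against -0.019, 0.0044 and 0.014 in empty-vector plants. The groups did not overlap, and the control arrays were tightly grouped (SD 0.0170) beside the transgenic arrays (SD 0.151, n = 3 per group). The 95% interval was 0.13 to 0.61, or 1.29-fold higher at the estimate if log2, with an adjusted p of 0.410 in limma. Without both replicate 3 arrays the difference was 0.32.

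SCPL32 (AT1G61130, 264937_at) on chromosome 1 was at -0.16, -0.17 and -0.32 in 35S-PaWRKY1 plants, against 0.071, -0.015 and -0.057 in empty-vector plants. The groups did not overlap, with the lowest value in transgenic replicate 3. The difference was -0.22 (SE 0.0888, 95% interval -0.43 to -0.0091), at an unadjusted p of 0.0431 and an adjusted p of 0.610 in limma. Without both replicate 3 arrays it was -0.20, and its unadjusted p in limma became 0.107.

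SCPL49 (AT3G10410, 258970_at), listed also as carboxypeptidase Y, bears the name of the vacuolar carboxypeptidase of yeast. Its values were -0.084, -0.082 and -0.093 in 35S-PaWRKY1 plants, against -0.014, 0.084 and -0.070 in empty-vector plants. The transgenic arrays were nearly equal (SD 0.00549) and lay just below the lowest control. The difference was small, -0.086, and its 95% interval of -0.28 to 0.11 included 0. Without both replicate 3 arrays it was -0.12. With SCPL34, SCPL32 and scpl46 it made up the 4 of 29 members whose groups did not overlap. The 3 members with transgenic arrays below control made 10.3% of the family beside a background of 9.17%, and the 1 above made 3.45% beside 5.34%.

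**Figure D2:**
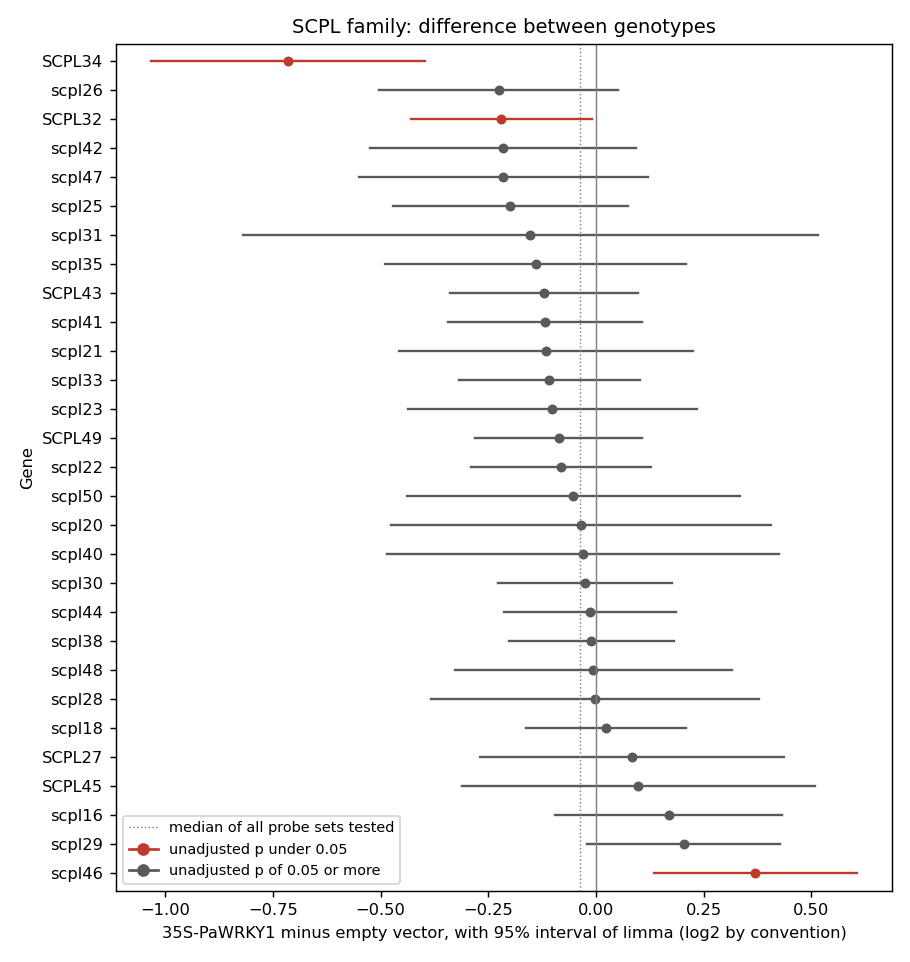
Difference of each SCPL gene, 35S-PaWRKY1 minus empty vector on a log scale read as log2, with the 95% interval of the limma fit over all probe sets (n = 3 per group). The intervals of SCPL34, SCPL32 and scpl46 leave out 0, and those of the other 26 genes include it; the dotted line is the median of all probe sets, -0.037.

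Among the lowest-numbered members, the range that holds the sinapoyltransferases SNG1 and SNG2, scpl16 and scpl18 were measured. The gene scpl16 (AT3G12220) stands on chromosome 3 next to scpl14. It was at 0.30, 0.071 and 0.14 in 35S-PaWRKY1 plants, against 0.067, 0.10 and -0.17 in empty-vector plants. The highest array was transgenic replicate 1 and the lowest control replicate 3, and the others overlapped. The difference was 0.17 (SE 0.111, adjusted p 0.757 in limma), and 0.098 without both replicate 3 arrays. For scpl18 it was 0.023 with an interval of -0.16 to 0.21, the narrowest of the 29.

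Sinapoylglucose, the donor for SNG1 and SNG2, is made by glucosyltransferases of the UGT84A group. Of 15 genes listed for the sinapate ester pathway, 5 were matched, and 0 passed in limma over all probe sets. All 5 lay above control, beside 39.5% of all probe sets, with a median difference of 0.31, where the median of all probe sets was -0.037. The count above control was 4 of 5 without 35S-PaWRKY1 replicate 1, without 35S-PaWRKY1 replicate 2 and without empty-vector replicate 1. In these fits 38.9%, 39.8% and 37.3% of all probe sets lay above control, and UGT84A4 was the gene not above. With 1 array left out the median of the 5 ran from 0.14 to 0.42. It was 0.12 without both replicate 3 arrays. HCT, a hydroxycinnamoyl transferase shared with lignin synthesis, was at 0.66, 0.67 and 0.17 in 35S-PaWRKY1 plants, against 0.067, 0.081 and -0.15 in empty-vector plants (difference 0.50, SE 0.157, adjusted p 0.485 in limma). The groups of HCT did not overlap (unadjusted p 0.0157 in limma), as for 5.34% of all probe sets in this direction. Its difference was 0.59 without both replicate 3 arrays. The glucosyltransferase genes UGT84A3 and UGT84A1 differed by 0.49 (SE 0.316) and 0.31 (SE 0.207), and their groups overlapped. UGT84A3 was at 0.12 without empty-vector replicate 3 and at 0.081 without both replicate 3 arrays, and UGT84A1 ran from 0.10 to 0.52 with 1 array left out. REF1, an aldehyde dehydrogenase that forms sinapate, differed by 0.15 (SE 0.128; 0.065 without both replicate 3 arrays), and UGT84A4 by 0.0054 (SE 0.128) (from -0.12 to 0.11 with 1 array left out). None of the 9 listed brassinosteroid genes was matched, so no comparison with the pathway of BRS1 was made.

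Members numbered 20 to 43, the range in which BRS1 (SCPL24) falls, made up 20 of the 29. In this range 18 lay below control and 2 above, with a median difference of -0.11, beside 60.5% of all probe sets below control and a median of -0.037; 0 passed in limma over all probe sets. The count below control was 13 of 20 with median centring, with equal quantiles and without both replicate 3 arrays, and 14 of 20 with array weights. In these fits 50.2%, 52.8%, 55.0% and 60.1% of all probe sets lay below control, in the same order. The median of the range was -0.076, -0.080, -0.091 and -0.072, beside -0.00071, -0.0087, -0.018 and -0.034 for all probe sets. With 1 array left out, the count ran from 14 of 20 without empty-vector replicate 3 to 19 of 20 without 35S-PaWRKY1 replicate 2. Beside SCPL34 and SCPL32, the members with the smallest p were scpl29, scpl26, scpl25 and scpl42.

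The gene scpl29 (AT4G30810) was above control, at 0.23, 0.29 and 0.092 in 35S-PaWRKY1 plants, against -0.038, 0.10 and -0.063 in empty-vector plants. Transgenic replicate 3 lay just under control replicate 2, so the groups overlapped by a narrow margin. The difference was 0.20 (SE 0.0949, adjusted p 0.646 in limma), and each same-numbered pair of arrays differed in this direction, by 0.26, 0.19 and 0.15. The fit without both replicate 3 arrays gave 0.23.

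For scpl26 (AT2G35780) the values were -0.23, -0.025 and -0.42 in 35S-PaWRKY1 plants, against 0.036, 0.025 and -0.061 in empty-vector plants. Transgenic replicate 2 lay among the controls. The difference of -0.23 (SE 0.117, adjusted p 0.678 in limma) was -0.16 without both replicate 3 arrays. Its neighbour on chromosome 2, scpl28, differed by -0.0025 with an interval of -0.38 to 0.38. The other neighbouring members, scpl22 and scpl23, differed by -0.081 (SE 0.0881) and -0.10 (SE 0.142).

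The gene scpl25 (AT3G02110) was nearly constant in 35S-PaWRKY1 plants, at -0.19, -0.21 and -0.20, against -0.19, -0.013 and 0.21 in empty-vector plants. The spread was thus almost wholly on the control side (SD 0.00975 in 35S-PaWRKY1 and 0.200 in empty vector, n = 3 per group). Control replicate 1 matched the transgenic level, and the difference of -0.20 (SE 0.115) had an adjusted p of 0.712 in limma. It was -0.095 without both replicate 3 arrays.

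On chromosome 5, scpl42 (AT5G42240) and scpl41 (AT5G42230) lie close together. The first was at -0.30, -0.20 and -0.15 in 35S-PaWRKY1 plants, against -0.091, -0.17 and 0.26 in empty-vector plants. For scpl41 the values were -0.22, -0.13 and -0.011 in 35S-PaWRKY1 plants, against 0.092, -0.0074 and -0.085 in empty-vector plants. Both overlapped with control; the differences were -0.22 (SE 0.130) and -0.12 (SE 0.0952), at adjusted p of 0.731 and 0.811 in limma. Of scpl42 the highest array was control replicate 3, and of scpl41 it was control replicate 1. With both replicate 3 arrays left out, the differences were -0.12 for scpl42 and -0.21 for scpl41.

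SCPL43 (AT2G12480) was at -0.24, 0.0038 and -0.13 in 35S-PaWRKY1 plants, against 0.016, 0.022 and -0.038 in empty-vector plants. The gene scpl33 (AT3G17180) was at -0.16, -0.031 and -0.13 in 35S-PaWRKY1 plants, against 0.098, -0.026 and -0.072 in empty-vector plants. In both, transgenic replicate 2 lay within the control range and the other transgenic arrays below it. The differences were -0.12 (SE 0.0920) and -0.11 (SE 0.0888), and -0.13 for both without both replicate 3 arrays.

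The remaining members numbered 20 to 43 had differences of -0.15 to 0.083. The largest control spread of the family was that of scpl31 (AT1G11080), at 0.32, -0.45 and -0.33 in 35S-PaWRKY1 plants, against -0.24, -0.29 and 0.53 in empty-vector plants (SD 0.415 in 35S-PaWRKY1 and 0.457 in empty vector, n = 3 per group). Its highest arrays were transgenic replicate 1 and control replicate 3. The difference of -0.15 turned to 0.20 without both replicate 3 arrays. Leaving out empty-vector replicate 3 alone gave 0.11, and leaving out 35S-PaWRKY1 replicate 3 alone gave -0.064. The direction thus rests on the control array. For scpl40 (AT3G63470) the values were 0.0091, 0.30 and -0.39 in 35S-PaWRKY1 plants, against -0.087, -0.15 and 0.23 in empty-vector plants, and the difference of -0.030 became 0.27 without both replicate 3 arrays. For scpl20 (AT4G12910) they were -0.23, 0.020 and 0.11 in 35S-PaWRKY1 plants, against 0.15, -0.40 and 0.25 in empty-vector plants, and the difference of -0.034 became 0.018 without both replicate 3 arrays. These 3 genes spread over more than the difference between genotypes.

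The other members of the range, given as differences alone, were scpl35 at -0.14 (SE 0.147), scpl21 at -0.12 (SE 0.144), scpl30 at -0.026 (SE 0.0851) and scpl38 at -0.011 (SE 0.0805). SCPL27 stood above control at 0.083 (SE 0.149). All had 95% intervals that included 0, and adjusted p of 0.852 or more in limma.

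Members numbered 44 to 51 hold SCPL49 and scpl46, described above, and 5 others. Of these 7, 5 lay below control and 2 above, with a median difference of -0.013, beside 60.5% of all probe sets below control. The count below control was 3 of 7 with median centring and with equal quantiles, where the median turned to 0.023 and 0.016, and 2 of 7 with array weights, where it was 0.0064. The count was 4 of 7 without both replicate 3 arrays, beside 55.0% of all probe sets. Of all probe sets, 50.2% lay below control with median centring, 52.8% with equal quantiles and 60.1% with array weights. Their medians were -0.00071, -0.0087 and -0.034, in the same order. The gene scpl47 (AT5G22980) was at -0.26, -0.29 and -0.097 in 35S-PaWRKY1 plants, against 0.29, -0.17 and -0.12 in empty-vector plants, a difference of -0.22 (SE 0.141, adjusted p 0.756 in limma). Control replicate 1 stood high, and transgenic replicate 3 lay above both other controls. The difference of scpl47 was -0.34 without both replicate 3 arrays. SCPL45 (AT1G28110) was at 0.077, 0.23 and -0.012 in 35S-PaWRKY1 plants, against -0.32, -0.021 and 0.34 in empty-vector plants. All its transgenic arrays fell inside the control range. The difference of 0.098 (SE 0.173) became -0.063 without control replicate 1 and 0.32 without both replicate 3 arrays. Near 0 were scpl50 at -0.053 (SE 0.163), scpl44 at -0.013 (SE 0.0842) and scpl48 at -0.0065 (SE 0.136).

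Over the family, 23 of 29 members (79.3%) lay below control and 6 above, beside 60.5% of all probe sets below control. The median difference was -0.081 for the members, with quartiles of -0.14 and -0.0065, and -0.037 for all probe sets tested, with quartiles of -0.13 and 0.062. This split varied with the scaling and weighting of the arrays and with the arrays included. With each array centred on its median, 16 of 29 members (55.2%) lay below control, beside 50.2% of all probe sets. With equal quantiles the count was 16 of 29 (55.2%), beside 52.8%. With array weights 16 of 29 members (55.2%) lay below control, beside 60.1% of all probe sets. Without both replicate 3 arrays 17 of 29 members (58.6%) lay below control, beside 55.0% of all probe sets. With 1 array left out, the count was lowest without empty-vector replicate 3, at 18 of 29 (62.1%), beside 56.3% of all probe sets. It was highest without 35S-PaWRKY1 replicate 2, at 25 of 29 (86.2%), beside 60.2%.

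**Figure D3:**
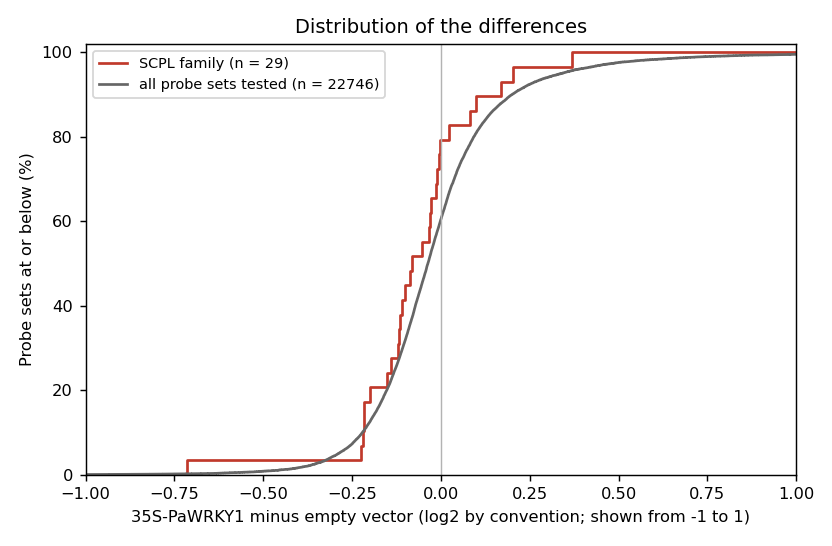
Cumulative share of probe sets at or below each difference, 35S-PaWRKY1 minus empty vector on a log scale read as log2, for the 29 SCPL genes and for all 22746 probe sets tested; the axis runs from -1 to 1. The family's curve lies to the left of the curve of all probe sets around the middle, with medians of -0.081 and -0.037.

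The median over the 29 members was -0.12, -0.0040 and -0.097 in 35S-PaWRKY1 replicates 1 to 3, against 0.016, -0.0074 and 0.014 in empty-vector replicates 1 to 3. The median over all probe sets was -0.029, -0.035 and -0.046 in the same 35S-PaWRKY1 arrays, against -0.024, 0.0077 and 0.014 in the empty-vector arrays. Below 0 were 19, 15 and 21 of the 29 members in 35S-PaWRKY1 replicates 1, 2 and 3, beside 56.7%, 58.0% and 60.2% of all probe sets on the same arrays. Between same-numbered arrays, 10 members lay below control at every number, 2 (scpl46 and scpl29) above at every number, and 17 had mixed signs. These make 34.5%, 6.90% and 58.6% of the members, beside 21.7%, 12.3% and 66.0% of all probe sets.

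The spread between replicates set the size of difference that could be told apart from 0. The median SD of the members was 0.120 in 35S-PaWRKY1 and 0.122 in empty vector, where over all probe sets it was 0.118 in 35S-PaWRKY1 and 0.148 in empty vector. At the median, the 95% interval reached 0.28 to either side of the estimate, among the members as among all probe sets. For 22 of 29 members (75.9%) the whole interval lay within 0.5 of 0 on either side, beside 68.9% of all probe sets. For these, a larger difference falls outside the interval. The 7 others were SCPL34, scpl46, scpl26, scpl42, scpl47, SCPL45 and scpl31.

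**Figure D4:**
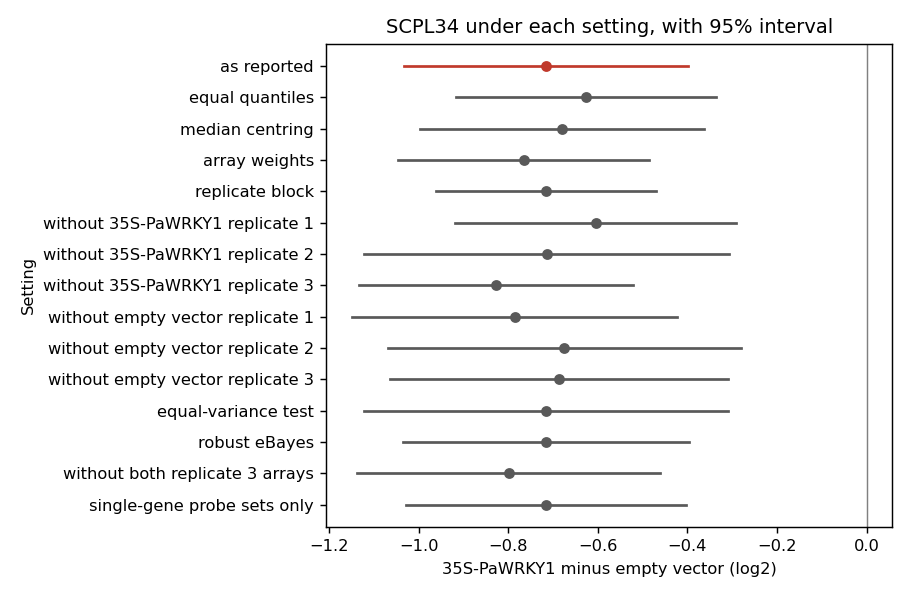
Difference of SCPL34, 35S-PaWRKY1 minus empty vector on a log scale read as log2, with its 95% interval as reported (red) and under each other setting (grey). Every estimate lies between -0.83 and -0.61 with the whole interval below 0, while the adjusted p over all probe sets ranges from 0.123 to 0.997.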

How the data were processed

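Biotin-labelled RNA of whole seedlings was measured on Affymetrix arrays, 3 of 35S-PaWRKY1 and 3 of empty-vector plants, per the labels' protocols. The deposited values, taken as log2 by convention, come from processing for which the submitters' processing notes list MAS5 and RMA without saying how each was used. Log base, direction and scaling between arrays are not stated. A test of the file showed every probe set centred on its 3 control arrays (largest absolute control mean 1.27e-06), so a fold is given only as "if log2", and no level or detection filter could be had.

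Of 22810 probe sets, 64 array controls were left out. The platform annotation, which may be outdated, gave 1 gene for 13513 probe sets, several for 503 and none for 8730; 2 of the 503 include an SCPL gene and are not members. Symbols were updated by gene identifier and locus tag through RefSeq's table of TAIR10.1, which was also used for chromosomes and neighbours; 29 entries had no match.

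The genotype difference was fitted over all 22746 probe sets with limma 3.58.1 (lmFit, eBayes; R 4.3.3) with no block. P-values are two-sided and adjusted by Benjamini-Hochberg over all probe sets, with a threshold of 0.05. The fit was run on simulated data with independent errors and known differences, as a check of the code. These data held no link between arrays of the same number, so they do not show how the p-values hold here. The number of arrays limits the precision. For replicates 1, 2 and 3, deviations from the group means of the 2 arrays with that number correlated by 0.314, 0.194 and 0.453 over probe sets. All exceed 0.1, but the 3 deviations of a group sum to 0, so the 3 correlations are not independent. Arrays of unlike number were not compared, so these values do not decide whether arrays were paired by number. The labels state no pairing. The values reported are those of the fit without the block, and the fit with the replicate number as a block is an alternative.

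Every member is named; values on each array are given for the 12 with the smallest p, 4 more with the largest SD, and SCPL49, added after its values were seen because its groups did not overlap. For the pathway and marker lists, values are given for matched genes, up to 4 a list by the rule; UGT84A4, the fifth, was added after its values were seen. The members, lists and ranges of SCPL numbers were chosen with earlier results of these data known. Alternatives were equal quantiles, centring on medians, weights per array, the replicate block, each array left out, an equal-variance test, robust eBayes and single-gene probe sets alone; leaving out both replicate 3 arrays was chosen after seeing the data.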

Additional observations from a re-analysis of the deposited data

How the results depend on the processing

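The count of members past the adjusted threshold was 0 under all 14 alternatives, the lowest adjusted p of any member being 0.123, for SCPL34 with the replicate block. With the block, 3 of 29 members (10.3%) kept an unadjusted p under 0.05 in limma (SCPL34, scpl46 and SCPL32), beside 10.8% of all probe sets. The block changed no call among the members. SCPL34 and scpl46 had an unadjusted p under 0.05 in all 15 fits and SCPL32 in 7 of them. The p-value was that of limma, or of an ordinary t-test in the equal-variance fit. The count of members was 2 or 3 of 29 throughout, but the third was not always SCPL32. In its place stood scpl29 with median centring and without 35S-PaWRKY1 replicate 3. Without 35S-PaWRKY1 replicate 2 it was scpl26, and without empty-vector replicate 1 it was scpl25. The share of all probe sets ran from 4.49% with equal quantiles, where 2 members were counted, to 11.9% with array weights, where 3 were. The median difference over members, -0.081 as reported, was -0.036 with array weights, where the median of all probe sets was -0.034. It was -0.041 with equal quantiles, where the median of all probe sets was -0.0087, and -0.045 with median centring, beside -0.00071. Without both replicate 3 arrays it was -0.064, beside -0.018 for all probe sets. With 1 array left out it ran from -0.11 to -0.045, and the median of all probe sets from -0.049 to -0.023. Of the 29 members 17 kept their sign under every alternative. The other 12, of which scpl31 at -0.15 was furthest from 0 in the reported fit, changed it 48 times in all. The equal-variance test, robust eBayes, the block and single-gene probe sets alone leave each difference as reported, so no sign could change there. None of these values passed a test, and the cause was not tested.

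With equal quantiles the values that turned positive were 0.0035 for scpl30, 0.031 for scpl20, 0.014 for scpl40, 0.016 for scpl44, 0.025 for scpl38, 0.016 for scpl48 and 0.039 for scpl28. Median centring gave these genes 0.0095, 0.0020, 0.0059, 0.023, 0.025, 0.029 and 0.033 in the same order. Array weights gave 0.084 for scpl50, 0.13 for scpl20, 0.16 for scpl40, 0.0056 for scpl44, 0.0063 for scpl38, 0.0064 for scpl48 and 0.16 for scpl28. Without both replicate 3 arrays scpl31 was at 0.20, scpl50 at 0.15, scpl20 at 0.018, scpl40 at 0.27, scpl38 at 0.018, scpl28 at 0.20 and the root marker EXPA7 at 0.096. With 1 array left out at a time, the differences that changed sign ran from -0.063 to 0.27 for SCPL45, -0.020 to 0.22 for SCPL27, -0.39 to 0.11 for scpl31, -0.15 to 0.12 for scpl50, -0.065 to 0.022 for scpl30, -0.0089 to 0.044 for scpl18 and -0.23 to 0.089 for scpl20. They ran from -0.19 to 0.15 for scpl40, -0.045 to 0.032 for scpl44, -0.045 to 0.015 for scpl38, -0.083 to 0.14 for scpl48 and -0.15 to 0.15 for scpl28. Among the list genes they ran from -0.12 to 0.11 for UGT84A4, -0.012 to 0.045 for RCA and -0.11 to 0.088 for EXPA7. Each member had 1 probe set, so averaging probe sets of a gene changed nothing.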

Other observations

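Among the probe sets that the annotation assigns to several genes, 2 include an SCPL gene and were left out of the family. Probe set 252085_s_at was at 0.045, 0.050 and 0.039 in 35S-PaWRKY1 plants, against 0.048, 0.054 and -0.10 in empty-vector plants. Probe set 251692_s_at was at 0.023, 0.050 and -0.025 in 35S-PaWRKY1 plants, against -0.13, 0.18 and -0.050 in empty-vector plants. The groups overlapped in both, with differences of 0.044 (SE 0.0835) and 0.016 (SE 0.104) and adjusted p of 0.926 and 0.984 in limma.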
